A study of Homo sapiens with 14 samples.

Results

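The region described here is a 15 Mb interval of chromosome 8, from 120 to 135 Mb on hg19, that covers band 8q24 around MYC. Its members are the peaks of 4 chromatin immunoprecipitation (ChIP-seq) peak lists that start inside these limits, 356 of 88872 peaks in all. Chromatin immunoprecipitation followed by sequencing recovers the DNA that a protein occupies, and a peak is a stretch where more sequenced tags pile up than in the background. The lists come from HL60, an established acute myeloid leukaemia cell line. They comprise SKI in unmodified cells (labelled WT, replicates 1 and 2), SKI in CRISPR/Cas9 control cells (labelled CTR-1) and RUNX1 in unmodified cells (labelled WT). CTR-1 is 1 line, and what the control cells carry is not given in the sources used here. The labels name no treatment or time. The other 10 of the 14 samples of the series, among them cells with SKI knocked out and the IgG controls, were not analysed here.

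MYC encodes a transcription factor that drives growth and division. PVT1, next to it, is a long noncoding RNA gene, and TRIB1, on its other side, encodes a pseudokinase that promotes degradation of the myeloid factor CEBPA. RUNX1 is a DNA-binding factor required for blood formation, and SKI is a corepressor recruited by DNA-bound partners. HL60 is known to carry extra copies of the MYC region. The tags of a region and the background set against its peaks both depend on how much of its DNA a library holds. DNA copy number was not measured in the data used here.

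The interval was richer in peaks than the remainder of chromosome 8 in all 4 lists. For the median background implied by the peaks, the interval of the ratio to the remainder contained 1 in each list. It held 244 SKI peaks in unmodified cells, replicate 1, 37 in replicate 2, 43 in the control cells and 32 RUNX1 peaks. These numbers correspond to 16.3, 2.47, 2.87 and 2.13 peaks per Mb. The other 131.5 Mb of the chromosome held 9.19, 1.07, 1.53 and 0.464 peaks per Mb in the same order. The ratio of densities was 1.77 (95% exact binomial interval 1.54 to 2.03) for SKI replicate 1 and 2.30 (1.56 to 3.32) for replicate 2. It was 1.88 (1.32 to 2.62) for SKI in control cells and 4.60 (2.90 to 7.17) for RUNX1. The RUNX1 list thus had 34.4% of its chromosome 8 peaks in the interval, against 16.8%, 20.8% and 17.6% of the SKI lists. These intervals cover counting error only. Each list is 1 sample, neighbouring peaks are not independent and no test over peaks was made. With 1 RUNX1 list against 3 SKI lists, an exact one-sided permutation over lists cannot go below a p of 0.25.

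The direction depended on what the interval was set against. Chromosome 8 had the lowest peak density of the 22 autosomes in each of the 4 lists, at 9.93, 1.22, 1.67 and 0.637 peaks per Mb, where the median autosome had 17.1, 4.82, 4.86 and 1.89. Set against the remaining autosomes, the interval was less dense in the 3 SKI lists, with ratios of 0.876, 0.498 and 0.598. The RUNX1 ratio was 1.13.

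Peaks were unevenly spread across the interval, as the plot of density by distance from MYC shows. Of 30 bins of 500 kb, 25, 15, 14 and 14 held a peak in the 4 lists in the order above, and 4 bins were empty in all of them. The last 1 Mb held 61 SKI peaks of replicate 1 (25% of the interval's), 15 of replicate 2 (40.5%), 16 of the control cells (37.2%) and 9 RUNX1 peaks (28.1%). The genes nearest to them were NDRG1, ST3GAL1, TG, SLA and their neighbours. The bin with most peaks began at 134 Mb for SKI replicate 1 (40 peaks), SKI in control cells (9) and RUNX1 (6), and at 134.5 Mb for SKI replicate 2 (8). The bin that holds the MYC transcription start had 8, 1, 1 and 3 peaks.

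**Figure D1:**
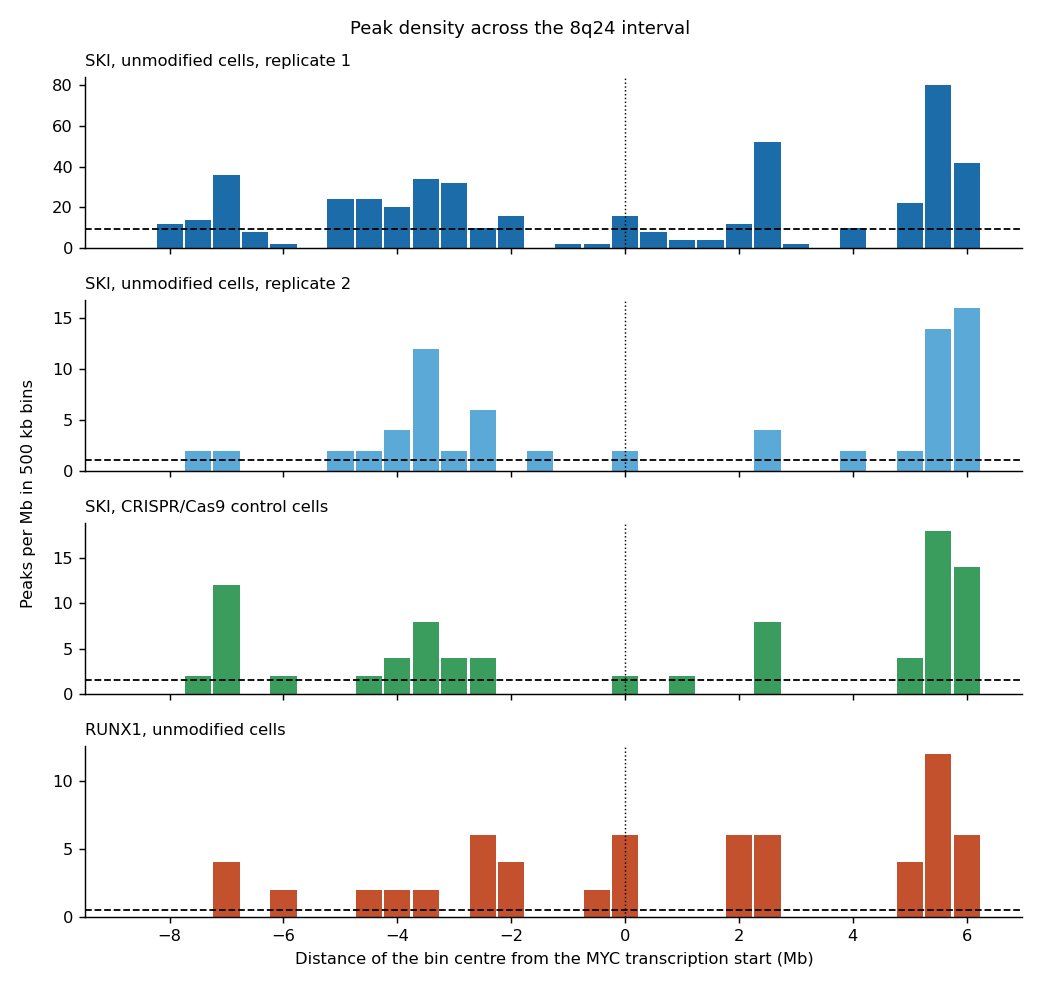
Peaks per Mb (y axis, a separate linear scale for each list) in 500 kb bins, by distance of the bin centre from the MYC transcription start in Mb (x axis). Each panel is 1 list, the dashed line is the density on the other 131.5 Mb of chromosome 8, and the dotted line marks MYC; the highest bars lie 5 to 6 Mb to the right of MYC in all 4 panels.

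In the SKI lists, a larger share of peaks lay in introns inside the interval than elsewhere on the chromosome. Introns held 46.7% (95% Wilson interval 40.6 to 53.0), 51.4% (35.9 to 66.6) and 51.2% (36.8 to 65.4) of the SKI peaks inside, against 27.9%, 28.4% and 33.8% outside. For RUNX1 the intron share was 50% (33.6 to 66.4) inside and 45.9% outside. Promoter peaks are a class of the authors' annotation, with a stated bound of 1250 bp around a transcription start. Some have a listed distance beyond it, such as -1676 bp at TG in SKI replicate 1. Narrower peaks of the other lists at that site were classed intronic, so the listed distance alone does not set the class. Promoter peaks made up 25.4% (20.4 to 31.2), 35.1% (21.8 to 51.2) and 27.9% (16.7 to 42.7) of the SKI peaks in the interval. Outside it they were 40.9%, 48.2% and 38.3%, and only the interval of replicate 1 excluded the outside share. For RUNX1 the promoter share was 18.8% (95% Wilson interval 8.89 to 35.3) inside and 14.8% outside.

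Median tags per peak were 83.5, 46, 59 and 56 inside, against 91, 47, 52 and 51 outside. Median fold enrichment, the authors' value for a peak over its background, was 25.2, 17.04, 20.95 and 22.8 inside and 24.4, 15.8, 18.8 and 25.8 outside. The median width was 635, 398, 661 and 607.5 bp inside and 687, 402, 596 and 505 bp outside. For SKI replicate 1 the ratio of widths was 0.924 (0.870 to 0.961), with an interval below 1. The median −log10 p-value of the RUNX1 peaks was 60.8 inside and 75.3 outside, a ratio of 0.808 (0.564 to 0.965). In the SKI lists this ratio was 0.961, 0.968 and 1.31, with intervals that contained 1. The intervals of all other ratios of tags, fold enrichment and width contained 1 too. Intervals of ratios of medians leave out the error of the outside median, so they are too narrow. Dividing tags by fold enrichment and by the width in kb gives the background that the authors' values imply, which also depends on the shape of a peak. Its median was 5.01, 6.69, 4.54 and 4.06 tags per kb in the interval, and 4.98, 7.43, 4.83 and 3.93 outside. The ratios were 1.01 (0.976 to 1.04), 0.90 (0.769 to 1.16), 0.940 (0.887 to 1.01) and 1.03 (0.821 to 1.33), with order-statistic 95% intervals that all contain 1. Against the remaining autosomes the medians were lower, at 0.707, 0.577, 0.598 and 0.697 times. Chromosome 8 also had the lowest median implied background of the 22 autosomes in each list.

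A small group of RUNX1 peaks stood far above these medians. A peak was counted as raised when its implied background was at least 2 times the median of chromosome 8 outside the interval. By this measure 9 of the 32 RUNX1 peaks of the interval were raised (28.1%, Wilson interval 15.6 to 45.4). Against the same reference, the share was 21.6% over all RUNX1 peaks of the genome and 14.8% (9 of 61, 7.96 to 25.7) over those elsewhere on chromosome 8. At a bound of 3 times, all 9 still counted, while the share fell to 5.01% of the 5549 RUNX1 peaks outside the interval and to 13.1% of the 61 on chromosome 8. The SKI lists had 4 raised peaks of 244 (1.64%), 2 of 37 (5.41%) and 0 of 43 (Wilson upper limit 8.20%). Over the genome the shares were 18.6%, 25% and 22.8%, and over the remainder of chromosome 8 they were 2.73%, 3.55% and 2.99%.

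All 9 raised RUNX1 peaks fell into 4.26 Mb around MYC, between 126398442 and 130660235. This stretch held 10 RUNX1 peaks in all, and the only one not raised was in PVT1. Its limits were set by these peaks after their values were seen, so the counts describe it and test nothing. The implied background of the 9 was 3.91 to 13.0 times the reference median, and that of the other 23 RUNX1 peaks 0.521 to 1.33 times, which leaves a gap between the sets. The 9 carried 48 to 172 tags (median 96), while the others carried 33 to 192 (median 47). Their fold enrichment was 1.82 to 10.03 (median 2.65), and that of the others 14.54 to 74.87 (median 28.01). They were also wider, with a median of 1108 bp against 501 bp. Fold enrichment and width enter the measure, so these contrasts are not separate evidence. The 9 peaks thus combined a low fold enrichment with tag counts inside the range of the ordinary peaks.

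**Figure D2:**
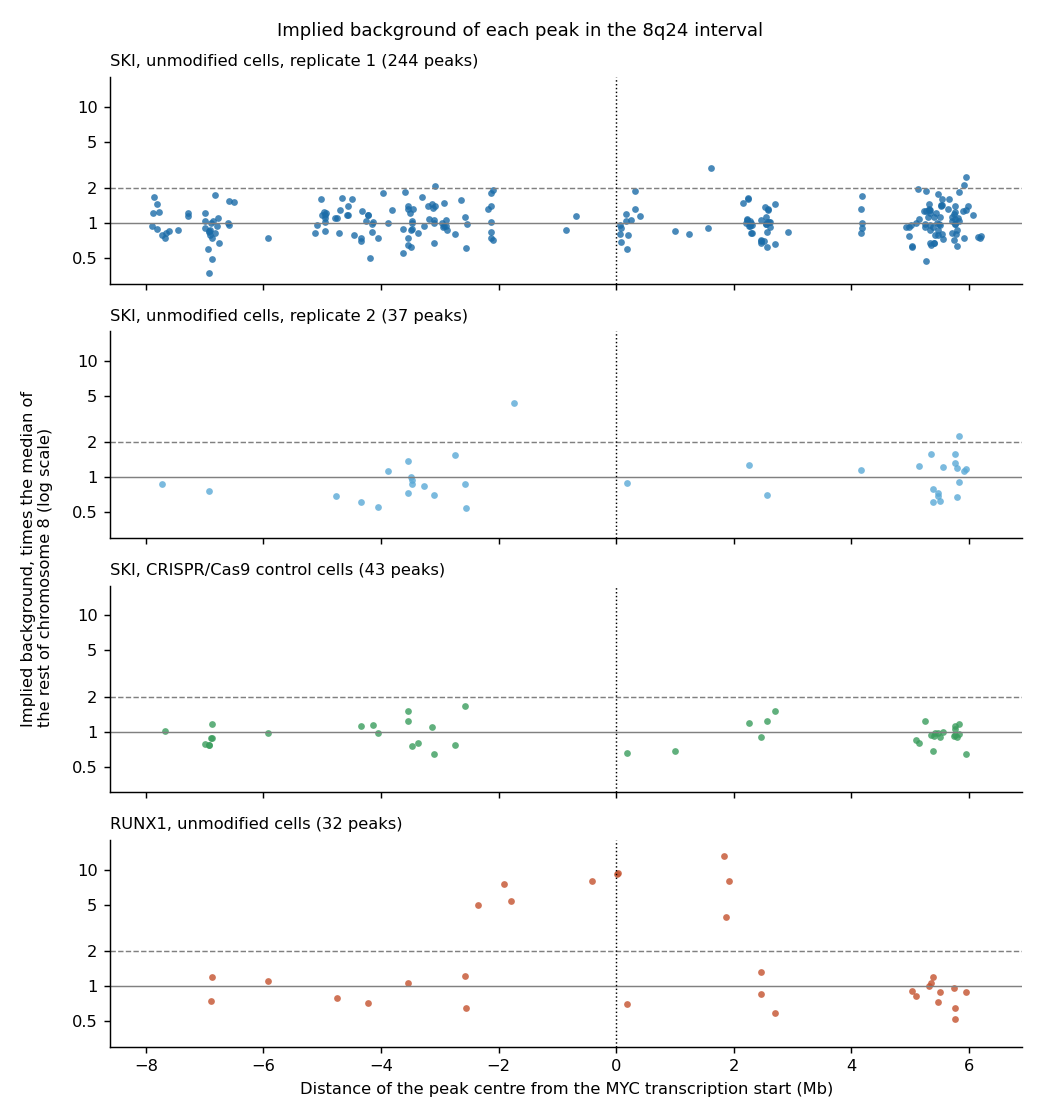
Implied background of each peak as a multiple of the median of chromosome 8 outside the interval (y axis, log scale), by distance of the peak centre from the MYC transcription start in Mb (x axis); each panel is 1 list and each point 1 peak. The solid line is 1, the dashed line the bound of 2 and the dotted line MYC; 9 RUNX1 points between 3.91 and 13.0 flank MYC, while the SKI panels have at most 4 points above 2.

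Only 2 peaks of the 4 lists were assigned to MYC, and both were raised RUNX1 peaks downstream of the gene. One lay at chromosome 8, 128763092 to 128763874, an intergenic position 14944 bp past the start of the assigned transcript, with 75 tags, a fold enrichment of 2.65 and 9.20 times the reference background. The other lay at 128771438 to 128772075, 23188 bp past the start, with 48 tags, a fold enrichment of 2.04 and 9.39 times the reference background. The −log10 p-value of the second was 5.01, at the lower limit of the list. No SKI peak of the 3 lists was assigned to MYC. Measured from the MYC start rebuilt from the deposited distances, at 128748553, the nearest SKI peak was 58.6 kb away in unmodified cells, replicate 1, 181 kb in replicate 2 and 182 kb in control cells.

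PVT1 carried an intronic site present in all 4 lists. In unmodified cells, replicate 1, the SKI peak at 128928786 to 128930755 had a fold enrichment of 88.8 with 516 tags. In replicate 2 the peak at 128929780 to 128930139 had 22.84 with 55 tags. In control cells the peak at 128929614 to 128930601 had 36.11 with 112 tags. The RUNX1 peak at 128929664 to 128930420 had 33.07 with 69 tags, and its summit lay 49 bp from that of SKI replicate 1. Implied background at this site was 0.593, 0.90, 0.650 and 0.702 times the reference median, below it in all 4 lists. The site is 158 kb from the nearer of the raised MYC peaks.

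Replicate 1 had 7 further SKI peaks assigned to PVT1, which neither other SKI list shared. They included the promoter (128806411 to 128807817, 14 bp from the start, fold enrichment 32.87, 184 tags). The other 6 were intronic, with fold enrichments of 11.69 to 30.94 and 34 to 149 tags. All 8 peaks of this list assigned to PVT1 had an implied background of 0.593 to 1.19 times the reference median. An intronic peak between them, at 128943789 to 128944416, was assigned to TMEM75, with a fold enrichment of 43.12 and 0.794 times the reference. Beyond them, the peaks at 129060530 and 129061223, assigned to MIR1207, had 1.33 and 1.89 times.

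TRIB1 was the nearest gene of no peak in any of the 4 lists. Its coding neighbours are NSMCE2, which encodes a SUMO ligase of the SMC5/6 DNA repair complex, and LRATD2, listed here under its older symbol FAM84B. NSMCE2 had 3 SKI peaks in replicate 1, 2 in replicate 2, 1 in control cells and 3 RUNX1 peaks. An intronic site at 126175497 to 126176087 was in all 4 lists, where SKI reached 151.25, 17.52 and 24.42 in list order and RUNX1 14.54. A second intronic RUNX1 peak, at 126200332 to 126200760, had a fold enrichment of 40.13 and 44 tags, with SKI in both lists of unmodified cells. SKI of replicate 2 reached 32.71 there, among its 5 highest values in the interval. The third, intergenic at 126398442 to 126399549, was the first of the raised peaks, with 91 tags, a fold enrichment of 4.19 and 4.99 times the reference background. Thus ordinary and raised RUNX1 peaks were assigned to the same gene, 198 kb apart. FAM84B had no peak.

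Between NSMCE2 and MYC lay 3 more raised RUNX1 peaks, all nearest to noncoding genes. One, at 126838066 to 126839315, was intergenic and nearest to RNU6-442P, with 99 tags, a fold enrichment of 2.65 and 7.61 times the reference background. One was at the promoter of LINC00861, 126962968 to 126963908, 83 bp from the start, with 96 tags, a fold enrichment of 4.81 and 5.40 times the background. One, at 128333155 to 128334338, was classed intronic and nearest to RP11-382A18.2, with 89 tags, a fold enrichment of 2.40 and 7.97 times the background. The 3 had similar tag counts, and their fold enrichments were all below the lowest of the 23 ordinary RUNX1 peaks.

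CCDC26, a long noncoding RNA gene on the far side of PVT1, had the remaining 3 raised RUNX1 peaks, all intronic. They lay at 130590899 to 130592078, 130615534 to 130616649 and 130659248 to 130660235. Their tags were 110, 172 and 114, their fold enrichments 1.82, 10.03 and 3.65, and their implied backgrounds 13.0, 3.91 and 8.05 times the reference median. The first had the lowest fold enrichment and the highest implied background of the interval's RUNX1 peaks. The middle one had the highest tag count and fold enrichment of the 9 raised peaks. The only SKI peak at CCDC26 was at a promoter, 130365111 to 130365562, in replicate 1, with 41 tags, a fold enrichment of 6.10 and 2.99 times the reference background of that list. It was the most raised SKI peak of replicate 1 in the interval.

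**Figure D3:**
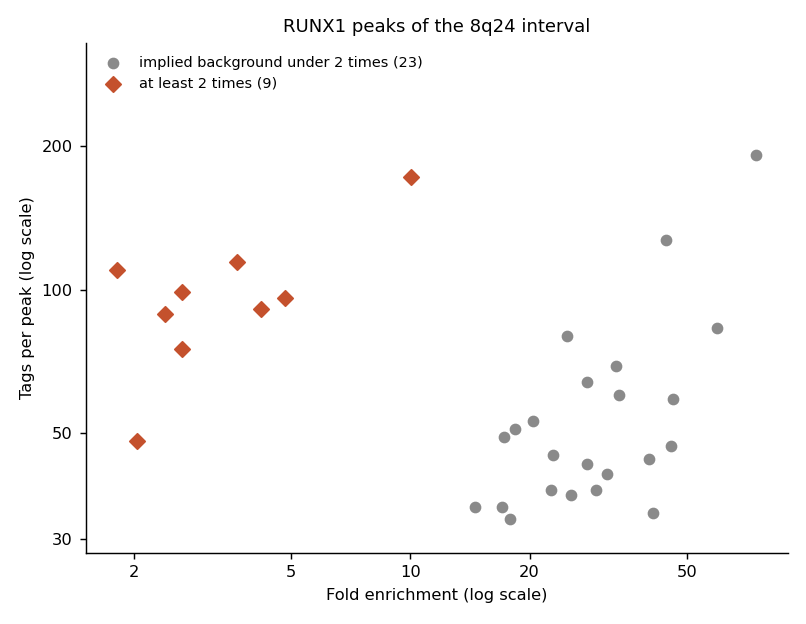
Tags per peak (y axis, log scale) against fold enrichment (x axis, log scale) for the 32 RUNX1 peaks of the interval, 1 point each; diamonds are the 9 peaks with an implied background of at least 2 times the median of chromosome 8 outside the interval, circles the other 23. The diamonds lie between 1.82 and 10.03 in fold enrichment and between 48 and 172 in tags, to the left of all circles.

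None of the 9 raised RUNX1 peaks overlapped a SKI peak (Wilson upper limit 29.9%), and none had one within 10 kb. The smallest distance was 34.3 kb, at MYC. Of the 23 ordinary RUNX1 peaks of the interval, 22 overlapped a SKI peak of at least 1 list and 10 a peak of all 3. Outside the interval, 95.3% of 5549 RUNX1 peaks overlapped a SKI peak. Among those raised at least 2 times it was 85.9% of 1196, and among those raised at least 3 times 56.8% of 278. On the remainder of chromosome 8 it was 2 of 8 (25%) at 3 times. SKI peaks do not enter the measure of background, but whether the share of 0 of 9 is particular to the stretch was not tested.

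The absence of SKI peaks there has a limit in the longest list. The 9 peaks lie in 4 stretches of 364 to 1232 kb without a SKI peak of replicate 1, where the median distance between neighbouring peaks on the chromosome was 19.5 kb. Of 1452 such distances the 4 ranked 23 to 80 from the longest. The stretch around MYC, 128059440 to 128806411, was 747 kb long. The table of this list keeps row numbers of a longer one, of which 72.9% are present genome-wide and 64.2% in the interval. In the 4 stretches 19 numbers are absent, 6.60 per Mb, against 9.07 per Mb over the interval, and the peaks behind them were not analysed here.

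Most SKI peaks inside the 4.26 Mb stretch had an implied background near the reference, and 2 were raised. Replicate 1 had 26 peaks there with a median of 0.987 times its reference background, and 1 was raised. Of these, 8 sat at 126568288 to 126657158, nearest to RP11-136O12.2 and RP11-697B24.1, between raised RUNX1 peaks. The control cells had 2 peaks, in PVT1 and nearest to AC068570.1, at 0.650 and 0.688 times. The second, at 129752611 to 129753170, had a fold enrichment of 44.61, among the 5 highest of that list in the interval. Replicate 2 had 2, the PVT1 site and a raised peak upstream of RP11-622O11.4 at 127009748 to 127010981. That peak had 171 tags, the most of the list in the interval, with a fold enrichment of 4.25 and 4.39 times the reference background. It lay 45.8 kb from the raised RUNX1 peak at LINC00861.

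In bins of 500 kb with at least 3 peaks, 2 of the 6 RUNX1 bins of the interval were raised and none of the 19, 4 and 5 SKI bins. Genome-wide, 15% of RUNX1 bins were raised, and 3.88%, 12.3% and 13.6% of SKI bins in list order. On the remainder of chromosome 8 it was 28.6% of 7 RUNX1 bins and 0.8%, 0% and 0% of the SKI bins. The RUNX1 bin from 128.5 Mb, with MYC and PVT1, had a median of 9.20 times the reference and ranked 9 of 771 bins of the genome. The bin from 130.5 Mb, with CCDC26, had 8.05 times and ranked 10. Of the bins beside them, that from 128 Mb held 1 RUNX1 peak, raised at 7.97 times, those from 129 and 130 Mb held none, and that from 131 Mb, with ASAP1, had 3 peaks at 0.847 times. In SKI replicate 1 the raised bins were at 0.856 times (8 peaks) and 1.29 times (6 peaks). Of the 8 bins that could be assessed in more than 1 list, 0 were raised in all. Each raised bin rests on 3 peaks. With only peaks of −log10 p of at least 10, neither bin counted, and 5 of the 9 raised RUNX1 peaks were left. With peaks of 300 to 1000 bp only, 1 bin and 4 peaks were left, and with bins of 1 Mb, 3 of 5 bins were raised.

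SKI binding common to all 3 lists was found at 22 sites of the interval, 1.47 per Mb against 0.722 per Mb on the remainder of chromosome 8. Sites are overlapping SKI peaks joined together. The number was 40 when replicate 2 of the unmodified cells was left out, and 9 with lists of equal length. RUNX1 overlapped 9 of the 22 (40.9%, Wilson interval 23.3 to 61.3). The share was 23.2% (15.8 to 32.6) of the 95 sites on the remainder of the chromosome and 33.4% of the 8958 sites outside the interval, so it is near the background. PVT1 was the only site of the 22 inside the 4.26 Mb stretch.

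The strongest of the 9 by its lowest rank over the lists was at NDRG1, a stress-responsive gene that is induced during differentiation and repressed by MYC. Its fold enrichment at 134257389 to 134258709, classed as promoter, was 162.5, 42.98 and 53.91 for SKI and 44.22 for RUNX1, with 127 RUNX1 tags. The summits of RUNX1 and SKI replicate 1 were 21 bp apart. A second NDRG1 promoter, at 134308319 to 134310996, had SKI in all 3 lists at 88.2, 13.6 and 21.1 and no RUNX1 peak.

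TG, which encodes thyroglobulin and is expressed mainly in the thyroid, was named at 3 of the shared sites. SLA, which encodes an adaptor protein of lymphoid and myeloid cells, lies within it on the opposite strand. The intronic site at 134141756 to 134143698 had SKI at 132.5, 63.98 and 80.67 and RUNX1 at 22.62. The site at 134103962 to 134105850 had 96.9, 6.19 and 26.55, and RUNX1 22.89. SLA itself had 9 SKI peaks in replicate 1, none in replicate 2 or control cells, and 1 RUNX1 peak at a promoter with a fold enrichment of 17.86 and 33 tags.

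ST3GAL1, a sialyltransferase that modifies O-linked glycans of leukocyte surface proteins, had 15, 6 and 6 SKI peaks and 3 RUNX1 peaks. Its promoter site at 134510497 to 134512241 had SKI at 83.1, 11.64 and 28.68 and held 2 RUNX1 peaks, the stronger at 46.13. An intronic site at 134550835 to 134551538 had SKI at 162.15, 32.71 and 33.22 without RUNX1. Another ST3GAL1 promoter, at 134580639 to 134585591, was the widest peak of replicate 1 in the interval and had no RUNX1 peak. One of the 2 raised peaks of replicate 2 lay inside it, at 2.26 times the reference.

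The remaining 3 sites shared with RUNX1 were nearest to noncoding genes. The intergenic site at 134706269 to 134707080, nearest to SNORA40, had SKI at 95.4, 13.2 and 51.0 and the strongest RUNX1 peak of the interval at 74.87, with 192 tags. The intronic site of WISP1-UT1 at 134228528 to 134229392 had SKI at 141, 16.36 and 19.03 and RUNX1 at 59.52. The intronic site of FER1L6-AS2 at 125209959 to 125211332 had SKI at 45.7, 9.01 and 9.61 and RUNX1 at 17.24. Over the 9 sites the summits of RUNX1 and SKI replicate 1 lay 16 to 71 bp apart.

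**Figure D4:**
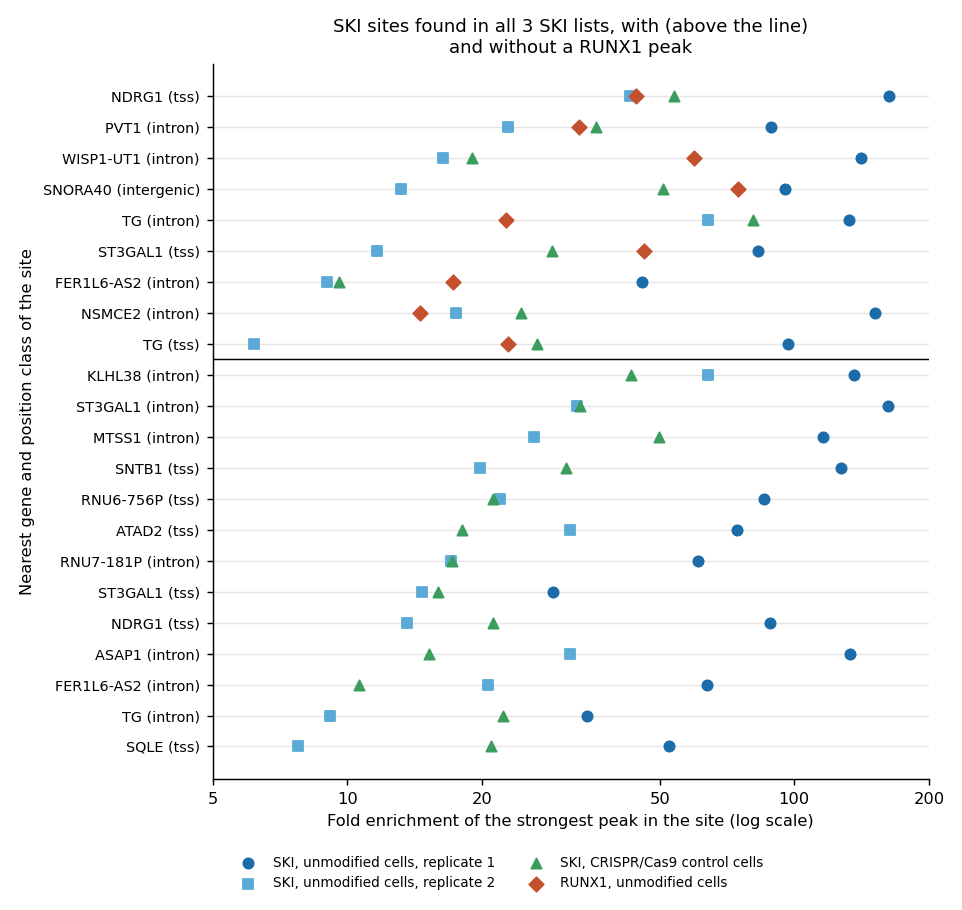
Fold enrichment of the strongest peak (x axis, log scale) at the 22 sites of the interval with SKI in all 3 lists, 1 row per site, labelled by nearest gene and position class. The upper 9 rows also hold a RUNX1 peak (diamonds, 14.54 to 74.87); replicate 1 of SKI is to the right of the other SKI lists in every row, and values of different lists are not on a common scale.

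The 13 shared SKI sites without RUNX1 were led by an intronic site at 124695335 to 124696114, nearest to KLHL38, with 135.86, 64.26 and 43.19. It was followed by the ST3GAL1 intron and by an intron of MTSS1, which encodes an actin-binding scaffold protein, with 115.81, 26.22 and 49.92. Promoters among the 13 included SNTB1, a syntrophin of the dystrophin complex, at 127.09, 19.86 and 30.8, ATAD2, a chromatin ATPase that acts with MYC and E2F, at 74.5, 31.54 and 18.09, and SQLE, an enzyme of cholesterol synthesis, at 52.54, 7.77 and 20.95.

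Of 61 genes of the interval sorted by role, 40 were nearest to a peak in at least 1 list and 7 in all 4. In list order, 39, 15, 15 and 12 genes had a peak. Lists of different length find different numbers of genes, so the counts are read within a list. The 50 protein-coding genes among the 61 that match a RefSeq symbol had a peak in 72%, 30%, 28% and 22% of cases. Of all protein-coding genes, 65.4%, 30.8%, 29.8% and 11.4% had one, and of those on chromosome 8, 55.4%, 11.2%, 13.7% and 5.03%. The genes were listed by hand with earlier results known, so these shares are a description. In SKI replicate 2 and RUNX1, the shares of the 50 count WISP1, under its newer symbol CCN4, through a synonym match. No peak of these lists was assigned to WISP1 by that name, and the group counts below leave it out there. In the group of MYC and the noncoding genes around it, 3, 1, 1 and 3 of 12 had a peak. PVT1 was present in each list, PCAT1 only in SKI replicate 1 (2 peaks, up to 19.02), and CASC8, CASC11, CASC19, CASC21, CCAT1, PCAT2, PRNCR1 and POU5F1B in none. Among TRIB1 and its flanking genes, 4, 3, 3 and 1 of 7 had a peak, namely NSMCE2, MTSS1, SQLE and, in replicate 1 only, KIAA0196.

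Among genes of cell division, replication and growth control, 10, 3, 4 and 2 of 11 had a peak. In SKI replicate 2 their highest fold enrichments were at NDRG1 (42.98), ATAD2 (31.54) and DEPTOR, an inhibitor of the mTOR kinase (17.24). The group of mitochondrial and ribosomal function held NDUFB9, MRPL13, TMEM65, TATDN1 and TRMT12, and its label fits the last 2 only loosely. All 5 were nearest to a SKI peak in replicate 1, from 8.14 at TRMT12, an intergenic peak, to 47.17 at TMEM65. Only TMEM65 had a SKI peak in control cells (25.49), and none of the 5 had a RUNX1 peak. In membrane traffic, adhesion and protein quality control, 9, 5, 2 and 3 of 11 had a peak. The leading genes in replicate 2 were ASAP1, an ARF GTPase-activating protein (31.54), SNTB1 (19.86), the ubiquitin ligase RNF139 (16.07) and EFR3A (12.29).

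ASAP1 had 19 SKI peaks in replicate 1, 1 in replicate 2, 3 in control cells and 3 RUNX1 peaks. An intronic SKI peak at 131218533 to 131219202 in replicate 1 had a fold enrichment of 137.32, and RUNX1 overlapped it at 24.93. The RUNX1 peak at its promoter, 131456818 to 131457266, had a fold enrichment of 45.45 and 47 tags. Its implied background was 0.586 times the reference. FAM49B, beside ASAP1, was the nearest gene of 9 SKI peaks in replicate 1, up to 48.7, and of none in any other list. Between these peaks, however, an intronic site at 131007024 to 131008140 had SKI in all 3 lists, at 60.84, 17.04 and 17.15. It was assigned to RNU7-181P. In leukocyte signalling and glycosylation 3, 2, 2 and 3 of 5 genes had a peak, and these were TG, ST3GAL1 and SLA. Without TG, which is a thyroid gene by its main expression, 2, 1, 1 and 2 of 4 genes had a peak. Of 10 tissue-restricted genes, 5, 1, 2 and 0 had one, with KLHL38 highest in replicate 2 (64.26). Counting TG with them gives 6, 2, 3 and 1 of 11.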

How the data were processed

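The 4 HL60 samples with a peak list were grouped and numbered by their titles. The submitters' processing notes name the tools Bowtie2, bcl2fastq, deepTools and MACS 1.4, and GRCh37 and hg19 as builds. Neither the depth of sequencing nor the control library used for each antibody is given in the sources used here. Per the file headers, each deposited peak has a tag count, a fold enrichment (a ratio over background) and a −log10 p-value from MACS, a position class and the nearest transcript with its distance. Fold enrichment was compared within a list, and the deposited FDR column was not used.

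From these values, peaks per Mb and medians of tags, fold enrichment and implied background (tags divided by fold enrichment and by width in kb) were computed for the interval and for the remainder of chromosome 8, whose length of 131.5 Mb ends with the last 500 kb bin that holds a peak. Bins needed at least 3 peaks. Peaks overlapping by at least 1 bp were joined into SKI sites. Density ratios have exact (Clopper-Pearson) intervals, shares Wilson intervals and medians order-statistic intervals, all at 95%. For ratios of medians, the limits of the median inside were divided by the median outside, which was treated as fixed. The order of neighbouring genes and the set of protein-coding genes came from a RefSeq table of another build (GRCh38), matched by symbol or by a synonym of 1 gene.

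Named were all peaks assigned to MYC, PVT1 or TRIB1, the 5 peaks of highest fold enrichment per list, shared SKI sites with RUNX1, raised bins, and up to 4 genes per role group. The other peaks and genes named, the 4.26 Mb stretch and the count of raised single peaks were picked with their values in view. The interval, the gene groups and the measures were chosen with earlier results of these data known. Alternatives were a stricter −log10 p-value of at least 10, lists of equal length, at least 35 tags, peaks of 300 to 1000 bp, other reference regions, bins, bounds and overlaps, and leaving out each SKI list. Calculations used scipy 1.17.1, pandas 2.3.3 and numpy 2.4.6 under Python 3.11.15, with matplotlib 3.10.9 for plots.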

Additional observations from a re-analysis of the deposited data

How the results depend on the processing

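Of 171 alternative values, 140 stayed within the 95% interval of the value in the report (ratios and shares) or within 1.5 times of it (counts). A count of 0 that stayed 0 was taken as unchanged. The RUNX1 ratios could not change with lists of equal length, since that list is the shortest. The 140 therefore include values that could not move. A further 28 fell outside the interval or the 1.5 times, and 3 changed direction. A change of direction was counted only where the interval of the value in the report excluded 1. Other values that crossed 1, such as the implied background of SKI replicate 1 and of RUNX1 against the autosomes, are not among the 3. Against the remaining autosomes, the density ratio changed direction in the SKI lists, to 0.876 and 0.498 in unmodified cells and 0.598 in control cells. For RUNX1 it was 1.13, with an interval that contained 1. The implied background then stood at 0.707, 0.577, 0.598 and 0.697 times, and fold enrichment at 1.35, 1.66, 1.80 and 1.25 times. For SKI replicate 1, lists of equal length (5581 peaks each) gave a density ratio of 2.57 and an implied background of 1.05 times. Counting only bins that hold a peak lowered the density ratio in every list, to 1.36, 1.77 and 1.44 for SKI and 3.53 for RUNX1. The 2 raised RUNX1 bins became 0 with at least 5 peaks per bin, 1 with widths of 300 to 1000 bp and 0 with −log10 p of at least 10, in each case with fewer peaks or bins to count. With 1 Mb bins there were 3 of 5, and with 250 kb bins 2 of 4. Shared SKI sites fell from 22 to 9 with lists of equal length, and numbered 23 to 40 when each SKI list was left out in turn, with 40 without replicate 2 of the unmodified cells.

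The alternatives for single raised peaks were chosen after seeing the data. At 1.5 times, the SKI lists had 27, 5 and 1 raised peaks, and at 3 times 0, 1 and 0. With the autosomes as reference, replicates 1 and 2 had 1 each. Replicate 2 had 1 with widths of 300 to 1000 bp and 1 with −log10 p of at least 10. RUNX1 kept 4 with those widths and 5 with that threshold, and 9 at 3 times and with the autosomes as reference. No paired analysis was possible because each comparison is made within a list, between regions, and not between samples that share numbers.

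Tags per peak limit the precision, with medians of 46 to 83.5 in the interval, and library depth is not given in the sources used here. The implied background is a proxy that peak width and shape also move, and copy number was not measured. The part of copy number, of the control library and of repeats in the raised RUNX1 values was not tested.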

Other observations

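Of the 9 raised RUNX1 peaks on the remainder of chromosome 8, 5 flanked the centromere, 3 intergenic peaks at 43771294 to 43808965 nearest to RP11-643N23.1 and 2 at 46867009 to 46886651 nearest to AC113134.1. Their fold enrichments were 3.04 to 4.69, with 38 to 61 tags and 5.59 to 13.6 times the reference background. Another 3 lay at the repeated REXO1L genes between 86565725 and 86786642, with fold enrichments of 8.75 to 10.28 and 2.38 to 3.41 times the background. The last, at 144751548 to 144751945, was nearest to ZNF707, with a fold enrichment of 4.43, 43 tags and 6.21 times the background. In the MYC stretch the raised peaks were 638 to 1250 bp wide with 48 to 172 tags.

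REXO1L, a family of near-identical gene copies to which reads cannot be assigned with certainty, was raised in SKI lists too. SKI replicate 1 had 4 peaks there at 2.44 to 4.64 times its reference, and the control cells 2 at 3.59 to 6.97 times. Replicate 2 had none listed. RUNX1 peaks at REXO1L overlapped SKI peaks in all 3 cases, those at the centromere in 0 of 5.

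The 8 bins of the genome that ranked above the MYC bin in the RUNX1 list were on an unplaced scaffold, on chromosomes 5, 8, 10, 11, 20, X and Y, and held 3 to 11 peaks each. Their medians were 9.28 to 16.04 times the reference. The bin of rank 7, on chromosome 8, is the one with the 3 peaks nearest to RP11-643N23.1. The 2 bins of the MYC interval followed at ranks 9 and 10, with 9.20 and 8.05 times.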
